A study of Homo sapiens with 12 samples.

Results

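MER41 elements are the long terminal repeats (LTRs) and internal stretches that a family of gammaretrovirus-like endogenous retroviruses of the ERV1 group left in primate genomes. They were taken as every annotated repeat whose subfamily name begins with MER41 and that held a count on its own strand in any library. There were 3150 such elements, of 243972 LTR elements and 1509971 elements of 6 repeat classes chosen the same way. MER41B gave 968 elements, MER41A 917, MER41-int 674, MER41C 258, MER41D 156, MER41E 132 and MER41G 45.

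RNA bound to V5-tagged proteins was recovered by PAR-CLIP from A375, an established human melanoma cell line, with labelling by a photoactivatable nucleoside begun 24 h after transient transfection. The groups were Clover, a fluorescent protein used as the control, full-length ZC3H18 (Z18fl), truncated ZC3H18 (Z18trunc) and that truncated form carrying changes of zinc finger aromatic residues (Z18truncZnFmut), each from a V5-tagged plasmid and each with 3 libraries. The proteins were overexpressed in 1 cell line that kept its own ZC3H18, and no input RNA was used here, so more transcript in the cell and more of it bound to the protein cannot be told apart, nor can more transfected cells and more RNA per cell. The labels do not say whether the 3 libraries of a group came from separate cultures, so p-values measure the spread between these libraries.

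An LTR holds the promoter and the polyadenylation signal of a retrovirus, and most genomic copies are solo LTRs left after the internal part recombined away. MER41B is known for carrying gamma-activated sites (GAS), a palindrome of interferon gamma-responsive enhancers, and some copies act as interferon-inducible enhancers of genes such as AIM2, an inflammasome sensor of DNA. ZC3H18 is a nuclear RNA surveillance factor that links capped transcripts to the machinery that degrades them.

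The sequences below show the GAS palindrome TTCNNNGAA in capitals, in the stretch around it, for loci that the results turn on. They are hg38 sequence on the strand of the element, 5′ to 3′. The motif reads the same on both strands.
MER41B on chromosome 7 (chr7:4795104-4795223, plus strand): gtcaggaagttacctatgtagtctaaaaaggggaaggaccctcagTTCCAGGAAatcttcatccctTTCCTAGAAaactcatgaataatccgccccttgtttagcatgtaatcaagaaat
MER41E on chromosome 9 (chr9:2742522-2742686, minus strand): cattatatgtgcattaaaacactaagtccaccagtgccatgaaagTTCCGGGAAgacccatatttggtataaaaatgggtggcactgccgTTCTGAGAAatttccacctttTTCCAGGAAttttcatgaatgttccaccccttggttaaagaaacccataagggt
MER41C on chromosome 17 (chr17:43360322-43360420, minus strand): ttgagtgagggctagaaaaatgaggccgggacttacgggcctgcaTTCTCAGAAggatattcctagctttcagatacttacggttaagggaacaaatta
MER41G on chromosome 19 (chr19:57624560-57624588, plus strand): atcccctcttTTCCCAGAAtacctaatga

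The MER41B copy on chromosome 7 carried a pair of GAS motifs whose starts lay 21 bases apart. MER41E on chromosome 9 had 3 GAS motifs, MER41C on chromosome 17 had 1 near its start, and of MER41G on chromosome 19 only the motif and its flanks are shown, because that copy lies in an untranslated exon.

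GAS motifs separated the subfamilies. In the central 300 bases of elements at least that long, TTCNNNGAA was present in 97 of 107 MER41E windows (90.7%, 95% Wilson interval 83.6 to 94.8) and in 634 of 781 MER41B windows (81.2%, 78.3 to 83.8). It was present in 13 of 779 MER41A windows (1.67%, 0.978 to 2.83), and in 7.87% of the 174194 windows of other LTR elements. MER41G (29.4% of 34), MER41-int (11.4%), MER41C (5.26%) and MER41D (3.23%) lay between these. The central window misses motifs near the ends, and over whole elements 43.0% of MER41C and 33.5% of MER41-int held the motif, against 71.0% of MER41B, 78.0% of MER41E and 4.58% of MER41A. Over whole elements 1196 of the 3150 held the motif, and 310 held a pair spaced by 21 bases, of which 271 were MER41B and 36 MER41E. The most frequent form was TTCCCAGAA, with 328 of 1725 occurrences. A match of letters describes the DNA and is not evidence of a bound factor.

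**Figure D1:**
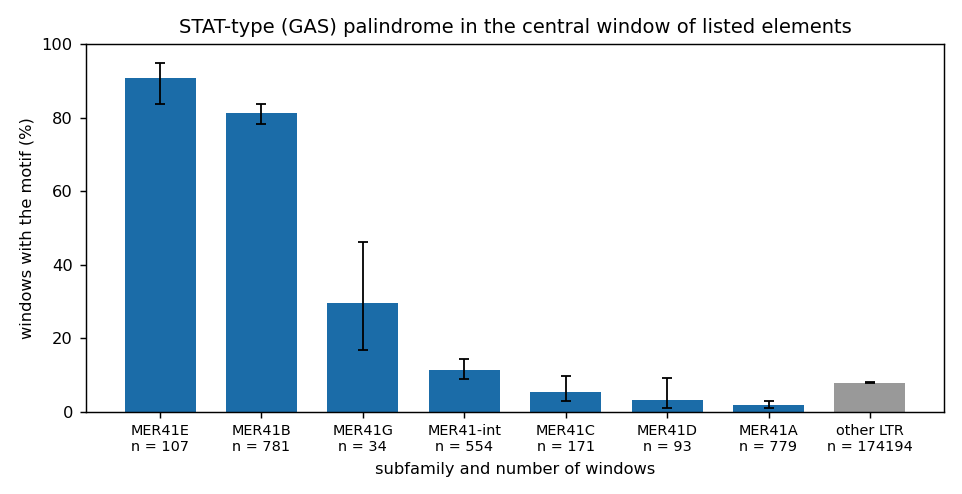
Percent of central 300-base windows with TTCNNNGAA (vertical axis) for each MER41 subfamily and for all other LTR elements (horizontal axis, with the number of windows). Bars are shares and error bars 95% Wilson intervals. MER41E and MER41B stand at 90.7% and 81.2%, and MER41A at 1.67% lies below other LTR elements at 7.87%.

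The interferon-stimulated response element, searched as 2 copies of GAAA with 2 bases between them on either strand, was no more frequent in MER41 windows (1.63%) than in other LTR windows (2.97%), and within MER41 it was most frequent in MER41-int (6.68%). AATAAA, the core polyadenylation signal read on the element strand, was in 26.4% of MER41 windows and 22.3% of other LTR windows. ATTTA was in 24.5% and 24.2%. MER41 elements were less diverged from their consensus than other LTR elements, with a median of 11.5% against 20.1%, and longer, with a median of 540 against 390 bases. Their median uracil content was 26.7% against 28.3% in other LTR elements. MER41-int was the richest in uracil at 32.7%, and MER41G the poorest at 23.3%. Uracil is the base that the labelling nucleoside replaces.

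MER41 RNA was a thin and scattered signal. Most members were seen only a few times, and 2058 of the 3150 (65.3%) had at most 2 counts over the 12 libraries together. All members summed to 17653 counts, 18 members had at least 100, and 42 had a count in every library. Clover libraries listed 264 to 317 members, Z18fl 440 to 495, and Z18trunc 424, 462 and 766. Z18truncZnFmut replicates 1 and 2 listed 406 and 435, but replicate 3 listed 2003. That library stood apart over all repeats as well, with element counts at 16.3% of aligned fragments against 6.28% to 9.59% in the others, and 1250 members were listed in it and nowhere else. Aligned fragments numbered 16683132 to 17673644 in Clover and 21285347 to 25686948 in the other libraries, so a member at a given level was less likely to be listed in Clover.

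Relative to aligned fragments the family was somewhat higher with each ZC3H18 construct. In counts on the element strand per 1000000 aligned fragments (CPM), Clover libraries gave 52.6, 48.1 and 47.3, with a mean of 49.3 ± 2.84 (SD, n = 3). Z18fl gave 52.1, 60.1 and 58.1 (56.8 ± 4.2), and its lowest library lay below the highest Clover library. Z18trunc gave 57.8, 58.5 and 72.9 (63.1 ± 8.55), all above Clover. Z18truncZnFmut gave 55.5, 55.5 and 165 (92.0 ± 63.3), also all above Clover, with a mean of 55.5 without replicate 3. LTR elements as a whole went from a mean of 6647 CPM in Clover to 7476 with Z18fl, 7754 with Z18trunc and 10425 with Z18truncZnFmut. The MER41 share of LTR counts was 0.742% ± 0.0255 in Clover against 0.759% ± 0.0508 in Z18fl. Z18trunc had 0.811% ± 0.0691, and Z18truncZnFmut 0.825% ± 0.200 (0.710% without replicate 3). The libraries of Z18fl and of Z18truncZnFmut overlapped those of Clover in that share, whereas all Z18trunc libraries (0.764% to 0.891%) lay above all Clover libraries (0.713% to 0.758%). That separation was lost under both other ways of counting. With unique reads Clover replicate 2 had 0.817% and Z18trunc replicate 2 had 0.802%. With reads of either strand Clover replicate 1 had 0.722% and Z18trunc replicate 2 had 0.710%. No test was made on these sums.

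The neighbouring families of old LTRs served as comparators. The MER4 group went from 65.4 ± 7.99 CPM in Clover to 81.6 ± 3.07 in Z18fl and 87.7 ± 11.4 in Z18trunc. The MER57 group went from 119 ± 7.86 to 101 ± 2.86 and 115 ± 8.75.

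**Figure D2:**
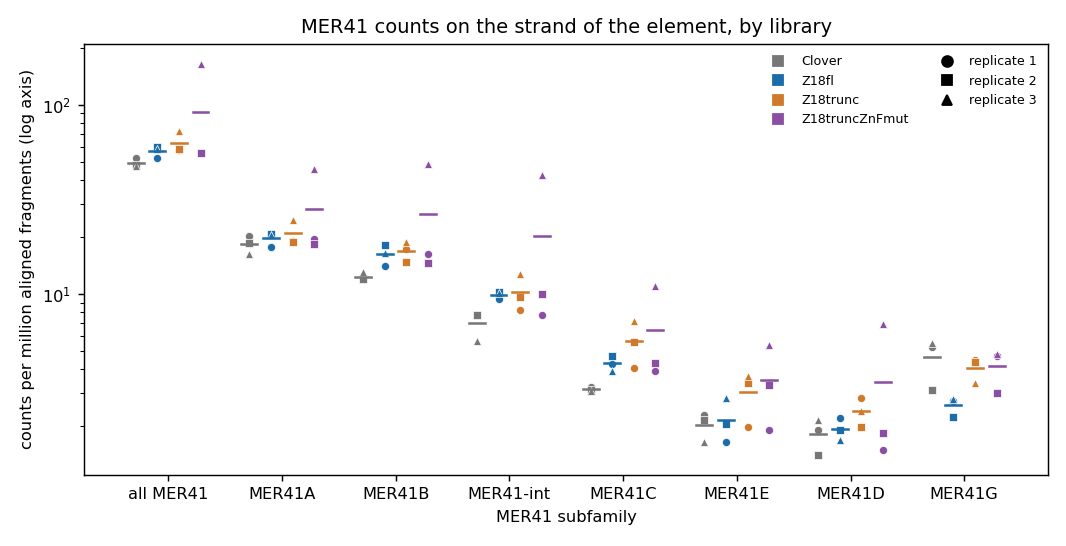
Counts on the element strand per 1000000 aligned fragments (vertical axis, log scale) for all MER41 elements and each subfamily (horizontal axis). Symbols are libraries and lines are group means. For all MER41 together Z18truncZnFmut replicate 3 (165) lies above the other 11 libraries, and for MER41G the Z18fl libraries (2.22 to 2.79) lie lowest.

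Where in genes the MER41 counts fell also differed between groups. Only 82 of the 3150 members were exonic on their own strand, with 637 in introns, 860 antisense to a gene and 1571 between genes. Those 82 held 25.6% ± 1.97 of the MER41 counts in Clover, 19.7% ± 0.0159 in Z18fl and 21.2% ± 2.89 in Z18trunc. In Z18truncZnFmut they held 16.4% ± 6.64, or 20.2% without replicate 3. The intronic share was 27.5% ± 0.781 in Clover, 34.7% ± 1.24 in Z18fl and 30.3% ± 3.33 in Z18trunc, and the Z18fl and Clover libraries did not overlap in either share. Elements of the class LTR other than MER41 shifted the same way, from 19.1% ± 0.310 to 16.5% ± 0.244 in exons and from 26.0% ± 0.482 to 36.7% ± 0.610 in introns, again without overlap of Clover and Z18fl. In CPM the intronic members stood at 13.1 to 14.1 in Clover and at 18.1 to 20.8 in Z18fl, whereas the exonic members stood at 12.4 to 13.0 and 10.2 to 11.8. The 10 loci with the most CPM held 26.4% ± 0.944 of counts in Clover and 18.8% ± 1.24 in Z18fl. In Z18truncZnFmut replicate 3, counts stood at 77.1 CPM between genes, 37.1 in introns, 36.3 antisense to genes and 14.7 in exons. Replicates 1 and 2 had 18.6 and 20.3 between genes, 18.2 and 16.6 in introns, 6.89 and 8.01 antisense to genes, and 11.9 and 10.5 in exons.

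**Figure D3:**
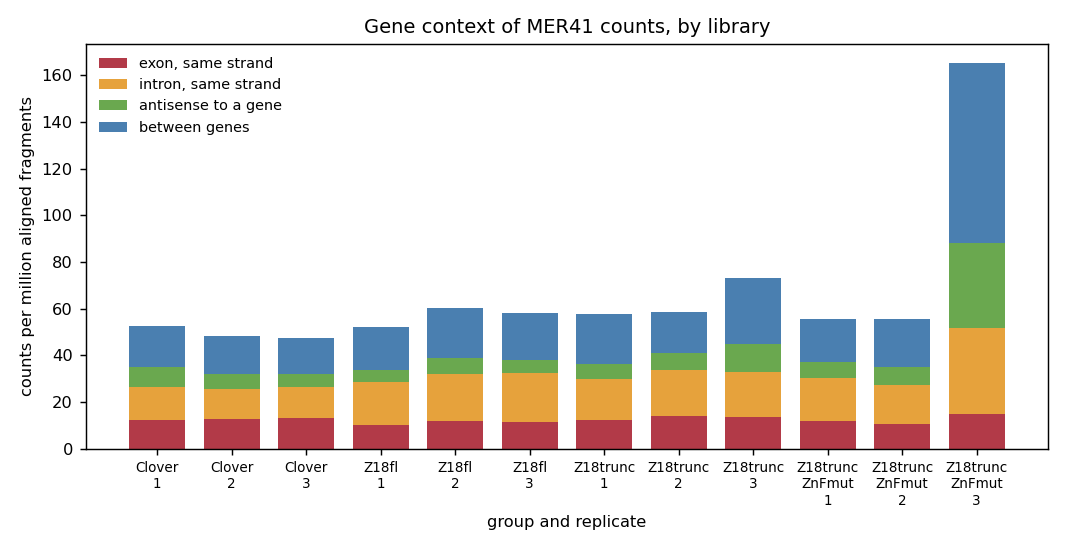
Counts on MER41 elements per 1000000 aligned fragments (vertical axis) in each library (horizontal axis, group and replicate), stacked by gene context. Exonic counts stay between 10.2 and 14.7 in every library, and Z18truncZnFmut replicate 3 is higher between genes (77.1), in introns (37.1) and antisense to genes (36.3).

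The share of MER41 counts on elements with a GAS pair was similar between groups. The 310 members with a GAS pair held 14.1% ± 1.25 with Clover, 13.3% ± 1.75 with Z18fl, 13.3% ± 1.26 with Z18trunc and 12.9% ± 2.11 with Z18truncZnFmut, and the libraries of all groups overlapped. The 1954 members with no GAS motif held 60.0% ± 4.40 with Clover and 62.4% ± 2.73 with Z18fl. No test was made on these shares.

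Counts summed over each subfamily asked which kinds of MER41 RNA were recovered more or less with ZC3H18 than with Clover, relative to all other repeats. MER41A and MER41G fell with Z18fl, and the remaining 5 subfamilies were not called. Of 915 subfamilies of all repeats, 20.1% were called higher and 20.1% lower in this comparison. After TMM scaling MER41A was lower by log2 −0.37 ± 0.090 (SE, edgeR adjusted p = 0.00337) and MER41G by −1.30 ± 0.20 (edgeR adjusted p = 7.54e-05). The median of the 7 MER41 subfamilies was −0.36, beside −0.01 over all subfamilies and −0.12 over LTR subfamilies. A GAS pair was held by 28.0% of MER41B and 27.3% of MER41E elements. MER41B was at −0.08 ± 0.11 (edgeR adjusted p = 0.623) and MER41E at −0.36 ± 0.24 (edgeR adjusted p = 0.245). MER41-int was at 0.04 ± 0.12.

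MER41G was mostly a single locus. The copy in ZNF134 held 83.3% of MER41G counts in Clover and 62.9% in Z18fl, and without it MER41G stood at 0.771 ± 0.302 CPM in Clover and 0.958 ± 0.236 in Z18fl. MER41A was spread over more loci, with no more than 8.11% of its counts in its leading locus in any group.

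The fall of MER41A depended on the scaling. TMM sets the typical repeat to no change, whereas scaling to aligned fragments moved the median of all subfamilies to 0.45 with Z18fl and 0.48 with Z18trunc. On that scale MER41A was at 0.10 ± 0.11 with Z18fl (edgeR adjusted p = 0.480), so its direction turned, and MER41-int (0.50 ± 0.14), MER41C (0.45 ± 0.17) and MER41B (0.39 ± 0.12) were called higher. MER41G stayed lower at −0.84 ± 0.21 (edgeR adjusted p = 0.00291). Beside the median of all subfamilies (0.45), MER41-int was higher by less than its SE, MER41C was level, and MER41B was lower by less than its SE.

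With Z18trunc the same 2 subfamilies were called lower, where 14.5% of 925 subfamilies were called higher and 11.9% lower. MER41A was at −0.32 ± 0.099 (edgeR adjusted p = 0.0231) and MER41G at −0.66 ± 0.23 (edgeR adjusted p = 0.0406). Both calls were lost with uniquely mapping reads, with reads of either strand and with all 12 libraries in a single fit, and MER41A turned to 0.18 with aligned fragments. MER41A lost its call without Clover replicate 1, 2 or 3 (−0.31, −0.28 and −0.34) and without Z18trunc replicate 1 or 2 (−0.32 and −0.29). MER41G lost it without Clover replicate 1 or 3 (−0.63 and −0.45) or Z18trunc replicate 3 (−0.44).

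No MER41 subfamily was called with Z18truncZnFmut against Clover by edgeR, where 1.3% of 921 subfamilies were called higher and 0.0% lower, though for 2 of the 7 the unadjusted p was under 0.05. DESeq2 called none of the 7, of which 3 had no adjusted p. MER41A was at −0.37 ± 0.14 (edgeR adjusted p = 0.206) and MER41G at −0.93 ± 0.38 (edgeR adjusted p = 0.237). Z18trunc against Z18fl gave no MER41 call by edgeR or DESeq2 (4 of 7 had no DESeq2 adjusted p), where edgeR called 1.48% of 948 subfamilies higher and 2.43% lower. For 1 the unadjusted p was under 0.05, MER41G, higher in Z18trunc by 0.61 ± 0.19 (edgeR adjusted p = 0.0983), a call that was made without Z18trunc replicate 3. Z18truncZnFmut against Z18trunc gave no MER41 call by edgeR or DESeq2, where edgeR called 0.0% of 957 subfamilies in either direction, and for 0 of the 7 the unadjusted p was under 0.05.

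**Figure D4:**
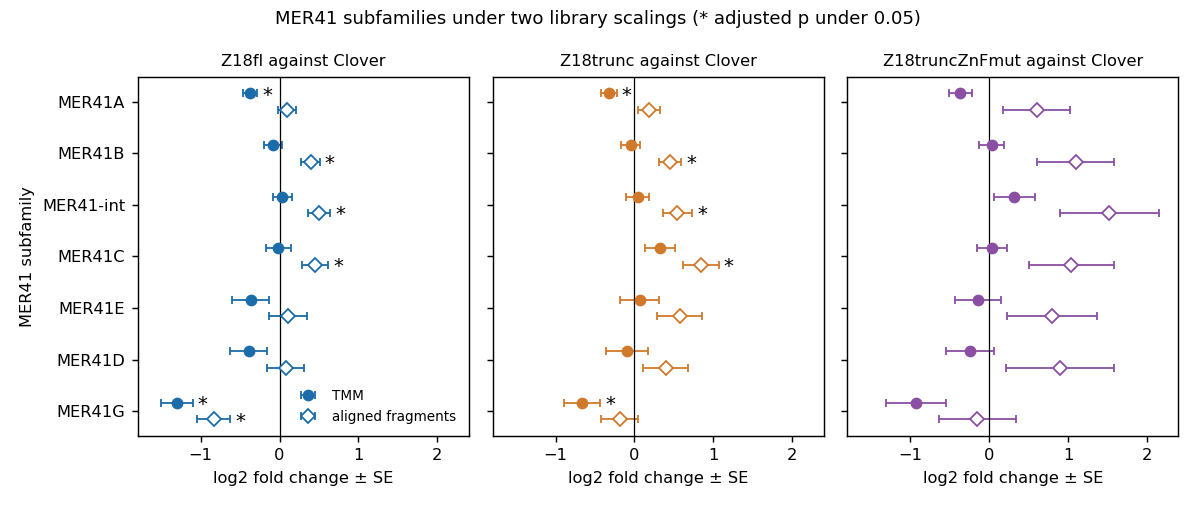
Log2 fold change against Clover with its standard error (horizontal axis) for each MER41 subfamily (vertical axis) in 3 comparisons. Filled circles use TMM scaling, open diamonds use aligned fragments, and asterisks mark edgeR adjusted p under 0.05. MER41G with Z18fl is called lower on both scales, while MER41A changes sign between them.

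Single loci could be tested for few members, since only 20 of the 3150 passed the filter on low counts in any comparison, and between 10 and 19 in each. Those that passed are the most abundant members and do not stand for the rest. The filter asked for enough counts in 3 libraries, so a locus low in Clover could be tested only through high counts with the construct. The copies called higher below, MER41B on chromosome 7 and MER41C on chromosome 17, had 5 to 15 counts in each Clover library. Numbers of loci called higher and lower therefore depend in part on the filter. With Z18fl against Clover 2 of 12 were called higher and 4 lower by edgeR, where 28.3% of the 12098 loci of all repeats were called higher and 24.6% lower. Of these 6, 2 higher and 3 lower had no overlap between the libraries of the groups (28.2% and 18.6% of all loci tested). With Z18trunc against Clover 1 of 13 was called higher and 3 lower (22.5% and 13.4% of all loci), of which 1 in each direction had no overlap (22.4% and 8.48%). With Z18truncZnFmut 0 of 10 were called by edgeR (12.3% and 4.83% of all loci, 12.2% and 3.63% without overlap), 1 had an unadjusted p under 0.05, and DESeq2 called 0 with 0 at an unadjusted p under 0.05. Each Clover comparison used the same 3 Clover libraries.

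The 2 copies in zinc-finger genes of chromosome 19 were lower with Z18fl. ZNF134 encodes a C2H2 zinc-finger protein, and its 3′ untranslated exon holds a MER41G copy at chr19:57624309-57624831 (plus strand, hg38). Counts there were 69, 44 and 85 with Clover (replicates 1 to 3), 35, 34 and 48 with Z18fl, 77.8, 80 and 66 with Z18trunc, and 104, 48 and 70 with Z18truncZnFmut. In CPM every Z18fl library (1.48 to 1.87) lay below every Clover library (2.57 to 4.81) and every Z18trunc library (2.79 to 3.31). The change was −1.60 ± 0.24 with Z18fl against Clover (edgeR adjusted p = 3.33e-05), and it was called under every alternative run, including each library left out.

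With Z18trunc the same copy was less reduced. It stood at −0.64 ± 0.22 against Clover (edgeR adjusted p = 0.0251), with overlapping libraries, and this call was lost without Clover replicate 1 or 3 (−0.65 and −0.45) or any 1 Z18trunc library (−0.58 to −0.55). It was also lost in 5 of 7 other settings, with values down to −0.30 with aligned fragments (edgeR adjusted p = 0.350). Tested directly, Z18trunc was above Z18fl by 0.87 ± 0.20 (edgeR adjusted p = 0.0151), without overlap of libraries, in a comparison where 2.62% of 19413 loci were called higher and 3.13% lower (2.48% and 3.04% without overlap). That call was lost without Z18fl replicate 1 or 2 (0.81 and 0.84) or Z18trunc replicate 1 or 2 (both 0.87). Z18truncZnFmut against Z18trunc was at 0.18 ± 0.22 (edgeR adjusted p = 0.766).

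ZNF850, another zinc-finger gene, holds a MER41A copy in an exon at chr19:36745883-36746139 (minus strand). Counts were 25, 25 and 31.0 with Clover, 13, 22 and 21 with Z18fl, 29, 27 and 17 with Z18trunc, and 27, 20 and 36.7 with Z18truncZnFmut. All Z18fl and all Z18trunc libraries were below all Clover libraries in CPM. The change was −1.37 ± 0.32 with Z18fl (edgeR adjusted p = 0.00153), called with each library left out and in 6 of 7 other settings. With Z18trunc it was −0.98 ± 0.30 (edgeR adjusted p = 0.0157), which was lost without Clover replicate 3 (−0.89) or Z18trunc replicate 2 or 3 (−0.94 and −0.76), and in 4 of 7 other settings, down to −0.62 with aligned fragments (edgeR adjusted p = 0.133).

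A MER41C copy rose with both Z18fl and Z18trunc. It lies at chr17:43359957-43360454 (minus strand) within the noncoding gene LINC00910, where GENCODE also places an unnamed transcript, ENSG00000279602, whose exon covers it. Counts were 12, 8 and 7 with Clover, 27, 39 and 32 with Z18fl, 35, 47 and 45 with Z18trunc, and 19, 19 and 23 with Z18truncZnFmut. In CPM the Clover libraries (0.396 to 0.719) lay below all 9 others, and Z18truncZnFmut (0.786 to 0.950) lay between Clover and both other constructs. The change was 1.4 ± 0.35 with Z18trunc (edgeR adjusted p = 0.00369), called under every alternative. With Z18fl it was 1.02 ± 0.37 (edgeR adjusted p = 0.0274) and lost its call without Clover replicate 2 or 3 (0.89 and 0.79) or Z18fl replicate 2 (0.94). That call was also lost in 2 of 7 other settings (edgeR or DESeq2 adjusted p up to 0.0662).

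The zinc-finger mutant was lower than Z18trunc at this MER41C copy, without overlap of libraries but without a call. It stood at −0.84 ± 0.30 (unadjusted p = 0.0101, edgeR adjusted p = 0.186). It was the 1 member of 17 tested with an unadjusted p under 0.05 in that comparison. There edgeR and DESeq2 called no member, DESeq2 leaving 14 of the 17 without an adjusted p. Of 16833 loci edgeR called 0.368% higher and 0.351% lower, and 0.351% each were both called and without overlap. Loci without overlap that were not called were not counted, so the separation at this copy has no reference share. Against Clover the mutant was at 0.54 ± 0.44 here (edgeR adjusted p = 0.463).

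The 2 abundant MER41B copies with a GAS pair went opposite ways. The copy at chr7:4794775-4795278 (plus strand) lies between genes, with counts of 5, 15 and 5 with Clover, 32, 41.5 and 43 with Z18fl, 30, 16.5 and 15 with Z18trunc, and 18, 14 and 21 with Z18truncZnFmut. All Z18fl libraries (1.38 to 1.81 CPM) were above those of Clover (0.283 to 0.877 CPM) and of Z18trunc (0.634 to 1.26 CPM). It rose by 1.36 ± 0.40 with Z18fl (edgeR adjusted p = 0.00854), a call lost without Clover replicate 3 (1.03, edgeR adjusted p = 0.0643). Z18trunc was below Z18fl by −0.98 ± 0.29 (edgeR adjusted p = 0.0458), and this call was made under none of the other 7 settings (edgeR or DESeq2 adjusted p = 0.0507 to 0.519). It held with 1 of 6 libraries left out, Z18trunc replicate 1, and without the others the change was −1.08 to −0.80.

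The copy on chromosome 11, also between genes, had 46, 48 and 34 counts with Clover, 26, 58 and 26 with Z18fl, 48, 40.4 and 31 with Z18trunc, and 57, 27 and 55 with Z18truncZnFmut. The groups overlapped in CPM, since Z18fl replicate 2 (2.53) lay within the Clover range (1.92 to 2.81). It was called lower with Z18fl at −1.04 ± 0.32 (edgeR adjusted p = 0.0118) and with Z18trunc at −0.93 ± 0.26 (edgeR adjusted p = 0.00723). The first call was lost without Z18fl replicate 1 or 3 (−0.71 and −0.62), and both were lost when libraries were scaled to aligned fragments (−0.69 and −0.58). Each was lost in 2 of 7 other settings, with aligned fragments among them.

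A MER41A copy on the strand opposite to OSBP2, an oxysterol-binding protein gene, lies on chromosome 22 and held no GAS motif. Counts were 20, 14 and 11 with Clover, 7, 14 and 5 with Z18fl, 12, 15 and 12 with Z18trunc, and 12, 11 and 10 with Z18truncZnFmut. Clover was highest, though its lowest library (0.622 CPM) was close to the highest of Z18fl (0.610 CPM). It was lower with Z18fl by −1.60 ± 0.47 (edgeR adjusted p = 0.00829), a call lost without Clover replicate 1 (−1.35) or Z18fl replicate 1 or 3 (−1.34 and −1.11), and in 1 of 7 other settings. With Z18trunc it was at −1.02 ± 0.41 (edgeR adjusted p = 0.0574) and with Z18truncZnFmut at −1.07 ± 0.45 (edgeR adjusted p = 0.111).

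Other repeats on the same strand within 10 kb of each locus, a measure chosen after the values were seen, were read beside it. Around the ZNF134 copy 6 other repeats summed to 3.78 ± 0.421 CPM in Clover and 1.70 ± 0.528 in Z18fl, and around the ZNF850 copy 10 others summed to 4.11 ± 0.728 and 1.47 ± 0.123. Around the MER41C copy in LINC00910, 28 others went from 6.63 ± 1.0 in Clover to 10.6 ± 0.565 in Z18fl and 12.7 ± 0.669 in Z18trunc, and stood at 8.17 ± 0.506 in Z18truncZnFmut. Near the chromosome 7 copy 8 other repeats went from 10.8 ± 0.115 CPM in Clover to 15.6 ± 0.636 in Z18fl, with 12.4 ± 1.09 in Z18trunc and 12 ± 1.12 in Z18truncZnFmut. At these 4 places the repeats around the locus stood in the same order of group means as the locus itself, and their Clover and Z18fl libraries did not overlap.

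Near the chromosome 11 copy 19 others were at 2.93 ± 0.357 and 2.63 ± 0.286, with overlapping libraries, and opposite OSBP2 7 others were at 0.714 ± 0.307 and 0.708 ± 0.144. Reads of the host genes themselves were not analysed here.

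**Figure D5:**
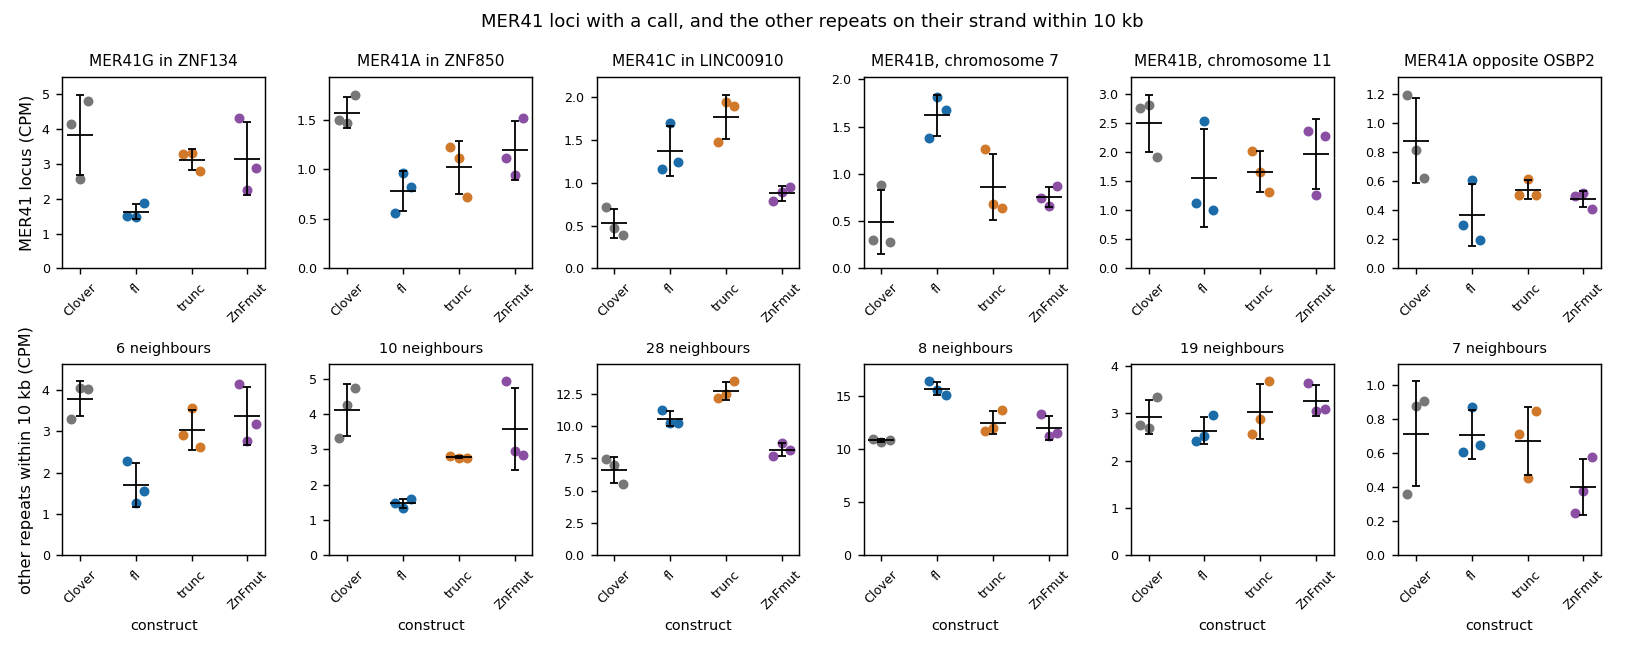
Counts per 1000000 aligned fragments (vertical axes, from 0) for the 6 MER41 loci called in any comparison (upper row) and for the other repeats on the same strand within 10 kb (lower row), by construct (horizontal axis, fl, trunc and ZnFmut for the ZC3H18 constructs). Points are libraries, with mean and SD. In ZNF134, ZNF850, LINC00910 and on chromosome 7 the group means of the lower row stand in the order of the upper, whereas near the chromosome 11 copy the neighbours go from 2.93 in Clover to 2.63 in Z18fl.

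Of the 10 loci with the most CPM, 4 were not called in any of the 5 comparisons. A MER41A copy in the 3′ untranslated exon of ANKLE1, an endonuclease gene, at chr19:17286861-17287148 was at −0.08 ± 0.28 with Z18fl and −0.06 ± 0.29 with Z18trunc. The MER41E copy with 3 GAS motifs at chr9:2742315-2742886, in an intron of PUM3, a nucleolar Pumilio-family protein gene, was at −0.91 ± 0.38 with Z18fl (edgeR adjusted p = 0.05001) and had overlapping libraries. It was called lower with all 12 libraries in a single fit (−0.98, edgeR adjusted p = 0.0374) and without Clover replicate 2 (−1.11, edgeR adjusted p = 0.0298). MER41-int at chr8:142960993-142962730 and the MER41B copy in an exon of NAXD-AS1, at chr13:110614349-110614797, were at 0.31 ± 0.38 and −0.52 ± 0.45 with Z18trunc against Z18fl. The chromosome 8 copy had no overlap of libraries there (0.507 to 0.744 against 0.392 to 0.506 CPM). It was at 0.77 ± 0.50 with Z18truncZnFmut against Clover (edgeR adjusted p = 0.329), also without overlap (0.619 to 0.940 against 0.240 to 0.526 CPM). Uncalled loci without overlap were not counted over all repeats. Of the reads of these 4 loci, 71.2% to 77.2% mapped uniquely. For the 6 called loci this share was 64.0% to 80.4%, lowest at the ZNF134 copy (64.0%) and the chromosome 7 copy (64.8%), so part of each value rests on reads that the authors' software divided among similar copies.

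Few MER41 counts lay near interferon-stimulated genes. Other LTR elements near these genes were not counted, so neither depletion nor enrichment can be read from the numbers. Of 72 such genes found in the annotation (73 names listed), 14 had a MER41 member in them or within 20 kb, and these were 21 of the 3150 members, 6 of them inside a gene. AIM2 had none with a count. The member with the most CPM was a MER41A copy without a GAS motif in an intron of MX1, the antiviral dynamin-like GTPase, at chr21:41422024-41422448 (plus strand). It had 0, 0 and 1 counts with Clover, 3, 4.84 and 3.07 with Z18fl, 0, 5.36 and 1 with Z18trunc, and 0, 0 and 2.3 with Z18truncZnFmut. It was too rare to be tested.

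The next were lower still. A MER41D copy in an exon of OAS2, a sensor of double-stranded RNA, had 6 counts over the 12 libraries, and 2 MER41-int copies within 20 kb of IFI27 and IFI6, genes of interferon-induced proteins, had 5 each, with another near IFI27 at 4. At this depth a difference between groups was not detectable at any of them.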

How the data were processed

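Samples were 12 PAR-CLIP libraries from A375 cells, grouped by title. The authors trimmed reads (cutadapt 4.6 per the submitters' processing notes) and ran SQuIRE, which maps to hg38 and counts reads per annotated repeat and strand. The deposited totals are expected counts, in which multimapping reads are divided by expectation maximization. The deposited unique reads and aligned fragments are counts, and the deposited score is a percent of reads assigned to the element. The authors' FPKM values were not used.

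Same-strand expected counts were rounded to whole numbers and tested with the edgeR 4.0.16 quasi-likelihood test (R 4.3.3; TMM; filterByExpr, minimum count 10, minimum total 15) over all loci, and over sums per subfamily, with the 6 libraries compared. Benjamini-Hochberg adjusted p under 0.05 was called. SE is the log2 change divided by the root of F. CPM is per 1000000 aligned fragments. On simulated data edgeR recovered 19% of 2-fold and 84% of 4-fold changes for Z18fl against Clover (12098 loci). False calls made up 7.21% of the calls there, and 2.75% to 9.17% over all comparisons. Each simulation changed 200 loci, whereas 28.3% of loci were called higher and 24.6% lower in the real Z18fl comparison. These rates need not hold for the real data. Exonic means at least 50% of the length in same-strand GENCODE 44 exons. Some sequences are not reported here. Intervals cover counting error only. Replicates of every group differed by more than sampling noise.

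Named items were every subfamily, the 10 loci of highest CPM, up to 4 called loci without overlap per direction and comparison (all called loci are given), and the 5 members of highest CPM near interferon genes. Members and lists were chosen with earlier results of these data known. Alternatives were DESeq2 1.42.0, aligned fragments, no filter, either strand, unique reads, all 12 libraries, a replicate block and each library left out. Replicate numbers were taken as pairing only for Z18truncZnFmut against Z18trunc, where deviations of same-numbered libraries correlated at 0.406, 0.163 and 0.607. Replicate 3 stood furthest from the other libraries in both groups, and whether that gave these correlations was not tested. Values printed for this comparison come from the fit without the block. The block was also run as a setting in the other comparisons, where deviations of same-numbered libraries correlated at −0.194 to 0.0327.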

Additional observations from a re-analysis of the deposited data

Results flagged for a closer look

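Reads antisense to MER41 elements, which the comparisons above leave out, were above the control with every ZC3H18 construct. They stood at 38.0, 28.7 and 30.0 per 1000000 aligned fragments in Clover (32.2 ± 5.01, SD, n = 3). Z18fl gave 47.0, 46.9 and 49.5 (47.8 ± 1.44), Z18trunc 46.5, 41.8 and 56.9 (48.4 ± 7.76), and Z18truncZnFmut 41.4, 47.2 and 159 (82.6 ± 66.4). The 9 libraries with ZC3H18 all lay above the highest Clover library. The same held for reads antisense to LTR elements other than MER41, at 5041 to 5572 in Clover and 5945 to 14072 in the 9 others. The mean with Z18truncZnFmut rests on replicate 3. No test was made on these sums, and part of the antisense reads may belong to other transcripts that cross the element.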

How the results depend on the processing

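Of the 3150 members 3130 were too rare for a locus test, and many calls moved with the setting. The cause of each change was not tested. The counts of called loci ran as follows. The number of members tested also changed with the setting, so a change of count need not be a change of rate. For Z18fl against Clover 12 were tested in the main fit, 1088 with no filter and 29 with all 12 libraries. With a library left out 11 to 25 were tested. For Z18trunc against Clover 13 were tested in the main fit, 1337 with no filter and 29 with all 12 libraries. Shares of all loci called under these settings are not given here. Z18fl against Clover gave 2 higher loci, 1 with DESeq2, 1 with no filter and 0 to 2 with a library left out. It gave 4 lower loci, 1 with no filter, 7 with all 12 libraries and 2 to 7 with a library left out. Z18trunc against Clover gave 3 lower loci, 1 with DESeq2 or unique reads, 0 with aligned fragments or no filter and 1 to 3 with a library left out. Z18truncZnFmut against Clover gave 0 lower loci of 10 tested, and 2 of 29 with all 12 libraries. Z18trunc against Z18fl gave 1 higher locus, 0 with no filter or all 12 libraries and 0 to 2 with a library left out. It gave 1 lower locus, which fell to 0 with DESeq2, aligned fragments, no filter, either strand, unique reads, all 12 libraries and the replicate block, and to 0 to 1 with a library left out. For subfamilies, aligned fragments gave 3 higher and 1 lower with Z18fl, and 3 higher and 0 lower with Z18trunc, and turned MER41A to 0.096 and 0.181. The 2 lower subfamilies with Z18trunc became 0 with either strand, unique reads, all 12 libraries and the replicate block, and 0 to 1 with a library left out. Z18trunc against Z18fl gave 0 higher subfamilies and 0 to 1 with a library left out. With the replicate block, where numbers were taken to pair libraries (Z18truncZnFmut against Z18trunc), 0 loci and 0 subfamilies were called, as without it. MER41 CPM was 81.6, 105, 111 and 175 with either strand in Clover, Z18fl, Z18trunc and Z18truncZnFmut, and 34.1, 42.3 and 45.6 with unique reads in the first 3. The Clover share of LTR counts was 0.684% with either strand and 0.787% with unique reads. Counting any exon base, the exonic share was 28.2% in Clover and 23.3% in Z18fl. In windows of 200 bases, 26.2% of MER41 windows held GAS, 1.03% the interferon-stimulated response element, 15.6% AATAAA and 18% ATTTA.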
